A study of Homo sapiens with 4 samples.

Results

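The genes described here are 50 genes of the lysosome and of autophagy, taken from a given list, and 49 of them were measured among 11311 genes in all. Each gene was read at its brightest probe by mean signal over the arrays, and was counted as measured when its detection p was under 0.05 on at least 2 of 4 arrays. CD63 had no probe named for it and was not analysed here. The cells were MDA-MB-468, an established human breast cancer line of basal-like type. The groups were 2 samples with the genotype mH2A1.2 knockout and 2 wild type samples, all with no treatment given in the labels. mH2A1.2 (macroH2A1.2) is a splice form of MACROH2A1, a variant of histone H2A, and the submitters' design text calls the gene depleted. How it was removed, whether the knockout cells are 1 clone, and whether replicates were separate cultures are not given in the sources used here. Every p-value therefore rests on the spread among the 4 samples alone, and part or all of that spread may be technical.

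The lysosome is the acid compartment in which cells break down protein, lipid, sugar chains and nucleic acids. A proton pump, the V-ATPase, acidifies it, hydrolases such as the cathepsins do the digestion, and heavily glycosylated proteins such as LAMP1 and LAMP2 line its membrane. In autophagy, parts of the cell are enclosed by a growing double membrane, marked by lipid-coupled ATG8 proteins, and delivered to the lysosome. Many genes of both systems carry a DNA element called CLEAR, which is bound by the related transcription factors TFEB and TFE3.

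Total RNA was read on 4 Illumina bead arrays, and values are normalised signals on the log2 scale. Differences are knockout minus wild type with the moderated standard error (SE, n = 2 per group), and tests are two-sided and made with limma, its p-values being adjusted by Benjamini-Hochberg for all 11311 genes. Between 18753 and 19817 of 47230 probes were detected per array, and median raw signals lay between 142.7 and 146.8. MACROH2A1 read 12.32 and 12.12 in knockout, against 13.04 and 12.96 in wild type, at its brightest probe, a difference of -0.78. Its 2 dimmer kept probes gave -1.03 and 0.78, and the mean of its probes -0.34. The knockout arrays lay at least 2-fold apart in 638 genes (5.64%) and the wild type arrays in 42 (0.371%). Epithelial markers EPCAM, KRT7, KRT8, KRT18 and EGFR were measured, whereas named probes of CDH1 and KRT5 were not detected. Of 3 receptor genes for which this line is known as negative, PGR was not detected and ERBB2 was detected on all 4 arrays. ESR1 was detected on both knockout arrays and neither wild type array. Its raw signals were near the array medians, at 158.1 and 153.1 in knockout, against 134.7 and 137.5 in wild type. The ESR1 difference was 0.16 ± 0.11. In RNA from whole cultures, a change in the share of a kind of cell and a change in RNA per cell cannot be told apart.

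Cathepsin D lay higher in knockout and the lysosomal channel gene MCOLN1 lower, and these were the largest differences among the 49 genes in each direction. Both knockout arrays lay above both wild type arrays in 5 of 7 cathepsins and 6 of 12 other hydrolases and cofactors, against 25.9% of all genes, and below in 1 and 3 of them, against 28.2%. The enzymes GLB1 and GLA, cathepsin C and ATG3 lay below it. Of the 49 genes 31 had a difference above 0 (63.3%, against 49.2% of all genes), with a median of 0.18 against -0.0048 for all genes. After adjustment 0 of the 49 were called, the lowest limma adjusted p being 0.123, and 0 of the 11311 were (0%). At an unadjusted limma p under 0.05, 6 of the 49 were higher (12.2%, against 9.6% of all genes) and 5 lower (10.2%, against 10.5%). Both shares are near the background. Scaling the arrays to equal medians, under which the all-gene median stood at 0.12, gave a split of 13 higher and 1 lower among the 49 genes, and 1283 higher and 209 lower among all genes, against 1086 and 1193 with quantile normalisation. It also enlarged several differences above 0, as in LAPTM4A (0.81), NPC2 (0.43), CTSB (0.40), CTSL (0.39) and LAMP1 (0.36).

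Both knockout arrays lay above both wild type arrays in 21 of the 49 genes (42.9%), against 25.9% of all genes, and below in 10 (20.4%), against 28.2%. These counts were 22 and 4 with arrays scaled to equal medians, under which the all-gene median stood at 0.12. The same counts were not made over all genes under that scaling, so 25.9% and 28.2% are not their background. The knockout arrays were not alike in this. Against the mean of the wild type arrays, the median over the 49 genes was 0.03 on knockout replicate 1 and 0.30 on knockout replicate 2, and over all genes -0.02 and -0.00078. On knockout replicate 1, only CTSD was at least 2-fold above the wild type mean (background 1.93%) and no member was 2-fold below it (background 1.27%). On knockout replicate 2, CTSD, GAA, TPP1, GRN, ULK1 and WIPI1 were at least 2-fold above (12.2%, background 6.91%) and MCOLN1 was 2-fold below (2.04%, background 4.75%). The part of that array in these differences was not tested beyond leaving it out.

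**Figure D1:**
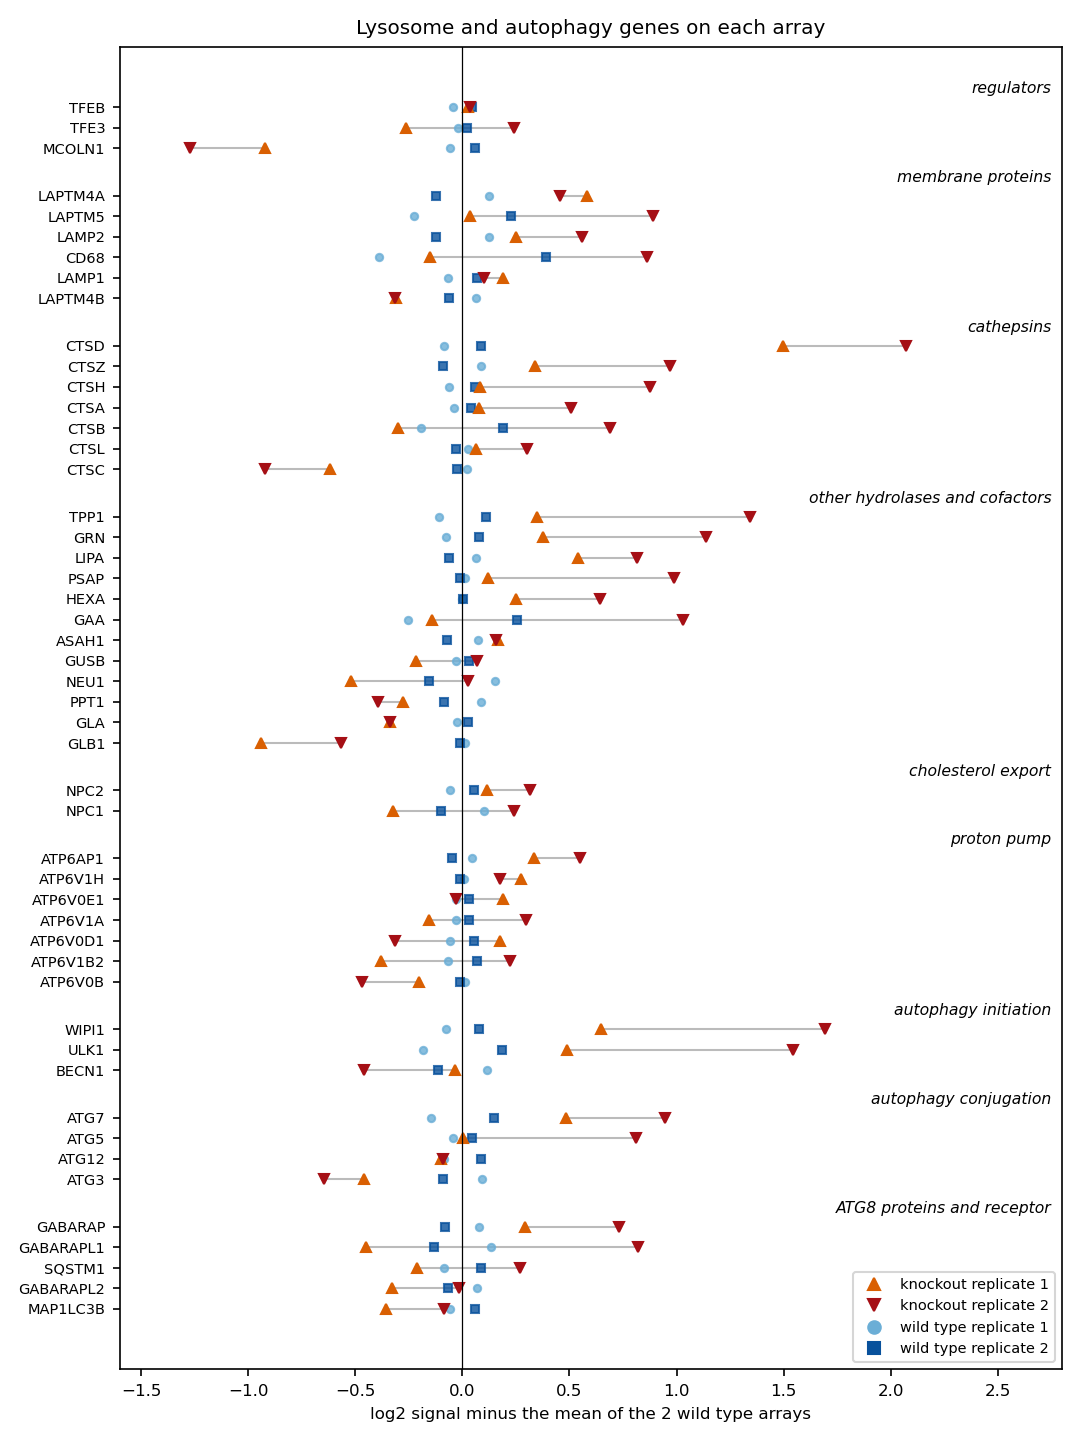
Log2 signal of each of the 49 measured genes on each array, minus the mean of the 2 wild type arrays, by role. Triangles are knockout replicates 1 and 2, joined by a grey line, and blue circles and squares are the wild type replicates. CTSD lies farthest to the right on both knockout arrays (1.5 and 2.07). MCOLN1 (-0.92 and -1.27) lies farthest to the left on knockout replicate 2, and GLB1 (-0.94 and -0.57) on knockout replicate 1.

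**Figure D2:**
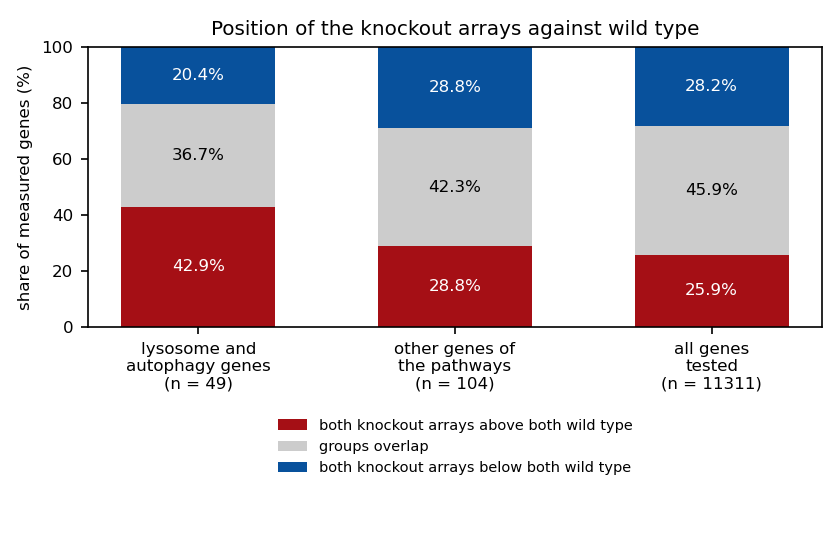
Share of measured genes, in percent, with both knockout arrays above both wild type arrays, with overlapping groups, or with both knockout arrays below. Bars are the 49 lysosome and autophagy genes, 104 other genes of the same pathways and all 11311 genes tested. The share with both knockout arrays above is 42.9% in the first bar, 28.8% in the second and 25.9% in the third.

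Among the regulators, MCOLN1 was the gene that differed. It encodes TRPML1, a channel that lets calcium out of the lysosome and through which starved cells switch TFEB on. MCOLN1 read 7.04 and 6.69 in knockout, against 7.90 and 8.02 in wild type. Both knockout arrays were low and the groups did not overlap. The difference was -1.10 ± 0.17 (SE, n = 2 per group) (2.14-fold lower), at a limma adjusted p of 0.126. It was -0.84 with arrays scaled to equal medians. Only 120 of the 11311 genes had a lower difference.

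The transcription factor genes themselves did not separate the groups. TFE3, which binds CLEAR elements, read 7.04 and 7.55 in knockout, against 7.29 and 7.33 in wild type, with the knockout arrays on either side of wild type and a difference of -0.01 ± 0.21 (SE, n = 2 per group). Its sign turned, to 0.27, with arrays scaled to equal medians. TFEB read 5.95 and 5.96 in knockout, against 5.88 and 5.96 in wild type, and its 4 values overlapped. TFEB passed the filter on detection p-values of 0.0494 and 0.0389 in knockout, and 0.0395 and 0.0428 in wild type, with raw signals of 142.9 and 140.0 in knockout, and 130.6 and 144.6 in wild type. Probes next below it in signal on the same arrays had detection p-values of 0.255 and 0.216 on the knockout arrays, and 0.581 and 0.194 on the wild type arrays. The TFEB signal is therefore not distinguishable from background here. With such detection p-values replaced by those of probes of like signal, an alternative chosen after seeing the data, TFEB was not measured and the other 48 genes were.

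Promoter sequences of several of these genes hold the core of the CLEAR element, and stretches of those described here are shown so that the differences can be read beside them. They come from RefSeq (GRCh38.p14), run 5′ to 3′ on the strand of the gene, end before its start site, and have each CACGTG in capitals.
CTSD (chr11:1763948-1763997, minus strand): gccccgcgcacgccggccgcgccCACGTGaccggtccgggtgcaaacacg
MCOLN1 (chr19:7522564-7522623, plus strand): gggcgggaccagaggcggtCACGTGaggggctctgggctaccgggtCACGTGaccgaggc
GAA (chr17:80101486-80101565, plus strand): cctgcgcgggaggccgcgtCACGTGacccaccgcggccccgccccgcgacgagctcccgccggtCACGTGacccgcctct
LAMP1 (chr13:113297034-113297113, plus strand): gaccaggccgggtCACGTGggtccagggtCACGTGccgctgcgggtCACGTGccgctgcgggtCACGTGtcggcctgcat
CTSA (chr20:45891275-45891334, plus strand): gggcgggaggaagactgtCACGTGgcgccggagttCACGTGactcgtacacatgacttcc
ATG3 (chr3:112561963-112562022, minus strand): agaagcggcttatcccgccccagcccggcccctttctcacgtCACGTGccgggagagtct
CACGTG reads the same on both strands, so 1 search covers both. In windows of 300 bases, 250 before and 50 after the start, it was found for 10 of 40 listed genes with a promoter in the table (25%), against 7.43% of 27305 promoters and 10.4% of those of the measured genes. The full element, CACGTG with GT before it and AC after it, also reads the same on both strands and was found for GAA and MCOLN1 (5.0%), against 0.381% of all promoters and 0.813% of those of the measured genes. Of the 9 measured genes with CACGTG, CTSD, GAA, CTSA and LAMP1 had differences above 0, and MCOLN1, ATG3, ATP6V0B, NEU1 and ATP6V0D1 below 0. ATP6V0D1 stood at 0.13 with arrays scaled to equal medians. Of the 2 genes with the full element, MCOLN1 stood at -1.10 ± 0.17 and GAA at 0.44 ± 0.46, with overlapping groups in GAA and a value of -0.14 without knockout replicate 2. A match says only that the letters are present.

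Cathepsins, the proteases of the lysosome, lay higher in knockout in 6 of 7 genes, with a median difference of 0.29 that was 0.08 on knockout replicate 1 and 0.69 on knockout replicate 2. CTSD, the aspartic protease of the group, read 10.81 and 11.38 in knockout, against 9.23 and 9.40 in wild type. Both knockout arrays stood far above both wild type arrays. The difference was 1.78 ± 0.24 (SE, n = 2 per group) (3.44-fold), at a limma adjusted p of 0.123. Only 54 of the 11311 genes had a higher difference. CTSC, which activates the serine proteases of immune cells by trimming them, was the exception in direction. It read 9.67 and 9.36 in knockout, against 10.31 and 10.26 in wild type, with no overlap and a difference of -0.77 ± 0.16 (limma adjusted p = 0.143). Its 2 dimmer kept probes gave -0.63 and -0.56.

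The remaining cathepsins differed less, and mostly on 1 array. CTSZ, a carboxypeptidase, read 7.74 and 8.37 in knockout, against 7.49 and 7.32 in wild type, a difference of 0.65 ± 0.25. CTSL, a main cysteine protease, read 11.86 and 12.10 in knockout, against 11.83 and 11.77 in wild type, a difference of 0.18 ± 0.14. Its dimmer kept probes gave 0.31 and -0.09. In CTSZ and CTSL the groups did not overlap at the probe used, but the lower knockout array lay within 0.34 of the wild type mean. CTSB, also a cysteine protease, read 8.73 and 9.72 in knockout, against 8.84 and 9.23 in wild type, so that the knockout arrays lay on either side and the difference of 0.19 ± 0.38 was smaller than its error. CTSA, which also protects GLB1 and NEU1 within a complex, and CTSH, an aminopeptidase, differed by 0.29 and 0.48, with knockout replicate 1 at 0.08 above the wild type mean in each.

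**Figure D3:**
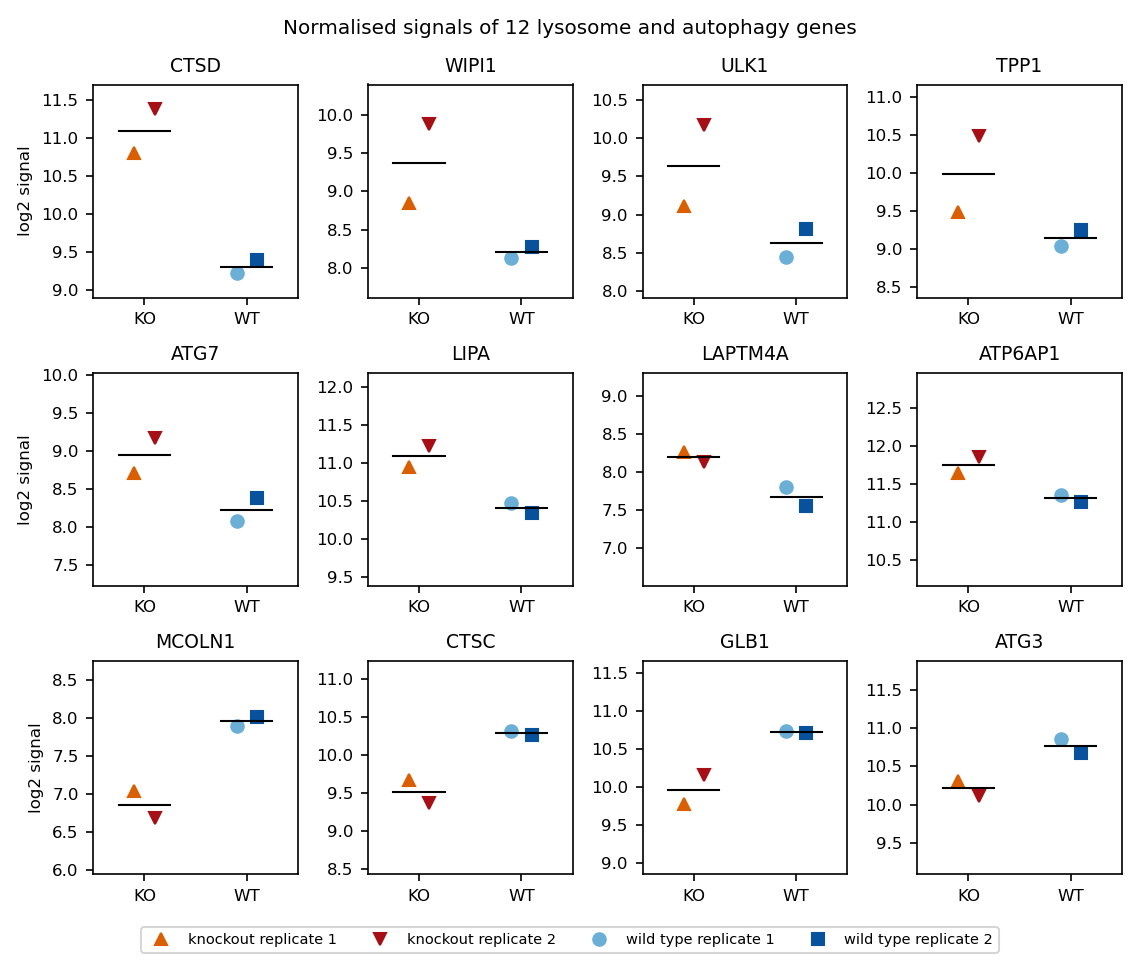
Normalised log2 signal of 12 genes on each array, knockout (KO) left and wild type (WT) right, with the group mean as a line. All panels span the same range of log2 units. CTSD, WIPI1, ULK1, TPP1, ATG7, LIPA, LAPTM4A and ATP6AP1 lie higher on both knockout arrays, and MCOLN1, CTSC, GLB1 and ATG3 lower, while WIPI1, ULK1 and TPP1 have knockout arrays far from each other.

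The other hydrolases and their cofactors went both ways, with 7 of 12 above 0 and a median of 0.30 that was -0.01 on knockout replicate 1 and 0.40 on knockout replicate 2. LIPA, the acid lipase that frees cholesterol from its esters, read 10.95 and 11.23 in knockout, against 10.47 and 10.35 in wild type. The groups were apart, by 0.68 ± 0.15 (SE, n = 2 per group; 1.60-fold; limma adjusted p = 0.157). TPP1, a protease that removes tripeptides, read 9.50 and 10.49 in knockout, against 9.04 and 9.26 in wild type, a difference of 0.85 ± 0.37. GRN, the precursor of the lysosomal granulins, read 10.12 and 10.88 in knockout, against 9.67 and 9.82 in wild type, a difference of 0.76 ± 0.29, and its dimmer probe gave 0.72. Both genes were higher on both knockout arrays, with knockout replicate 2 at 1.34 and 1.14 above the wild type mean and knockout replicate 1 at 0.35 and 0.38.

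GLB1 and GLA, which cut terminal galactose, lay lower in knockout, whereas GALC, which cuts it from a lipid and is among the other pathway genes, differed by 0.66 ± 0.29. GLB1, the acid beta-galactosidase, read 9.78 and 10.15 in knockout, against 10.73 and 10.70 in wild type. The wild type arrays were close together and both knockout arrays lay below them, by -0.75 ± 0.17 (SE, n = 2 per group; 1.69-fold lower; limma adjusted p = 0.157), and a dimmer kept probe gave -0.85. GLA, the alpha-galactosidase, read 10.39 and 10.39 in knockout, against 10.70 and 10.76 in wild type, a difference of -0.34 ± 0.11 (limma adjusted p = 0.227). GLB1 stood at -0.57 and GLA at -0.15 with arrays scaled to equal medians.

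Of the remaining members of this role, PSAP, the precursor of the saposins that help enzymes reach lipids, HEXA, a subunit of beta-hexosaminidase, and ASAH1, the acid ceramidase, lay above wild type on both knockout arrays, by 0.55, 0.45 and 0.16. PPT1, which removes fatty acids from proteins, lay below on both, by -0.34, or -0.14 with arrays scaled to equal medians. In GAA, the enzyme that digests glycogen, in GUSB, beta-glucuronidase, and in NEU1, a sialidase, the groups overlapped, with differences of 0.44, -0.08 and -0.25. GUSB turned to 0.11 and NEU1 stood at -0.05 with arrays scaled to equal medians. For PSAP nearly all of the difference came from 1 array, with 12.49 and 13.36 in knockout, against 12.39 and 12.36 in wild type.

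Genes for proteins of the lysosomal membrane had RNA differences above 0 in 5 of 6 measured genes, against 49.2% of all genes. Their median was 0.38, with 0.11 on knockout replicate 1 and 0.51 on knockout replicate 2. Both knockout arrays lay above both wild type arrays in 3 of the 6, against 25.9% of all genes. LAPTM4A, a small multispanning protein, read 8.25 and 8.12 in knockout, against 7.79 and 7.55 in wild type. It was higher on both knockout arrays by about the same amount, with a difference of 0.52 ± 0.15 (SE, n = 2 per group; 1.43-fold; limma adjusted p = 0.189). Its relative LAPTM4B went the other way, with 11.13 and 11.12 in knockout, against 11.50 and 11.38 in wild type, a difference of -0.31 ± 0.12, and a dimmer probe gave -0.29. LAPTM4B stood at -0.11 with arrays scaled to equal medians. The LAMP1 signals were 11.83 and 11.74 in knockout, against 11.57 and 11.71 in wild type. Although the groups did not overlap, the nearest arrays were close and the difference of 0.15 ± 0.13 was near its error.

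LAMP2, whose splice form A takes up single proteins in chaperone-mediated autophagy, gave probes that disagreed. At the brightest probe it read 11.28 and 11.59 in knockout, against 11.16 and 10.91 in wild type, a difference of 0.40 ± 0.18. A dimmer probe annotated to the same transcript record gave 0.63. Of 3 probes annotated to a second record, 1 gave 0.37 and the others -0.11 and -0.17, and the remaining kept probe, annotated to another record, gave 0.63. The splice forms that each probe reaches were not looked up here, and the LAMP2 difference holds for its brightest probe.

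CD68 and LAPTM5, which macrophages and other blood cells make in large amounts, varied between replicates by about as much as between groups, or more. CD68 read 10.27 and 11.29 in knockout, against 10.03 and 10.81 in wild type, with a difference of 0.35 ± 0.46 (SE, n = 2 per group). LAPTM5 read 6.77 and 7.63 in knockout, against 6.51 and 6.96 in wild type, with a difference of 0.46 ± 0.35. In each gene replicate 2 was the higher array of both groups, and the groups overlapped. Of 12 macrophage and monocyte markers 4 were measured, and their summed normalised signal was 384 and 546 in knockout, against 311 and 297 in wild type. Most of that difference was CD14, at 7.45 and 8.36 in knockout, against 6.63 and 6.64 in wild type. Named probes of the defining markers PTPRC, CD163, ITGAM, ITGAX, TYROBP, FCER1G, MRC1 and SPI1 were not detected. Of 6 osteoclast markers only CTSK was measured, at 6.05 and 6.72 in knockout, against 6.08 and 6.08 in wild type. Of 6 fibroblast markers 3 were measured, with sums of 276 and 340 in knockout, against 218 and 190 in wild type. PDGFRB made most of that difference, at 1.08 on the log2 scale, and COL1A2, COL3A1 and LUM were not measured. The 5 measured epithelial markers also summed higher, to 4458 and 4316 in knockout, against 3390 and 3385 in wild type. They did not differ alike. KRT7, KRT8 and EGFR lay above wild type on both knockout arrays, by 0.35, 0.51 and 0.58. EGFR stood at 0.09 on knockout replicate 1 and 1.07 on knockout replicate 2. In EPCAM (0.08) and KRT18 (-0.11) the groups overlapped. The part of any of these markers' cells in the cathepsin and membrane results was not tested.

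**Figure D4:**
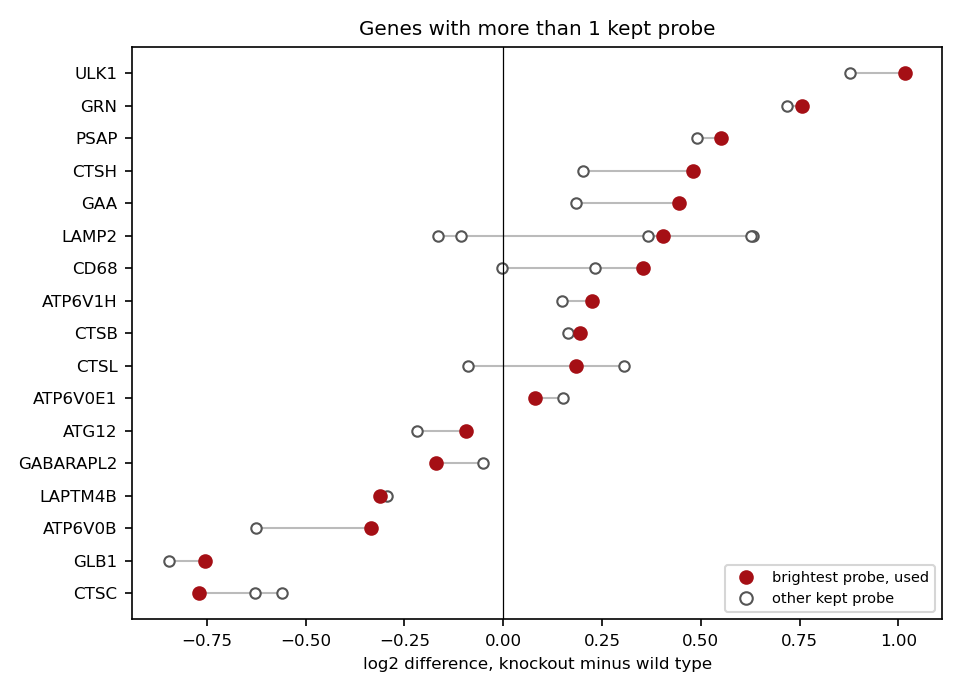
Log2 difference, knockout minus wild type, at every kept probe of the 17 genes with more than 1. Filled points are the brightest probe, which is the one used, and open points the others. Signs agree in 14 genes and differ in LAMP2, CD68 and CTSL.

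The cholesterol exporters NPC1 and NPC2, which hand cholesterol on from the digested lipid, did not differ alike. NPC2, the soluble carrier, read 13.25 and 13.45 in knockout, against 13.08 and 13.19 in wild type, a difference of 0.22 ± 0.14 (SE, n = 2 per group), with the lowest knockout array close to the highest wild type array. NPC1, the membrane transporter, read 9.93 and 10.50 in knockout, against 10.36 and 10.16 in wild type, a difference of -0.04 ± 0.24 with overlapping groups. NPC1 turned to 0.15 with arrays scaled to equal medians.

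Genes of the proton pump lay on both sides, with 4 of 7 measured genes above 0 and a median of 0.07. ATP6AP1, an accessory subunit needed to assemble the pump, read 11.64 and 11.86 in knockout, against 11.36 and 11.27 in wild type. It was higher on both knockout arrays, by 0.44 ± 0.14 (SE, n = 2 per group; 1.36-fold; limma adjusted p = 0.210). ATP6V0B, a proteolipid of the membrane ring, read 11.33 and 11.07 in knockout, against 11.55 and 11.52 in wild type, a difference of -0.34 ± 0.15, and its dimmer probe gave -0.63. It stood at -0.13 with arrays scaled to equal medians. ATP6V1H, the regulatory subunit of the cytosolic part, was higher on both knockout arrays by 0.22. In ATP6V0D1 and ATP6V0E1 of the membrane part, and in ATP6V1A and ATP6V1B2, which form the ATP-splitting head, the groups overlapped and differences lay between -0.08 and 0.08. With arrays scaled to equal medians, ATP6V0D1 and ATP6V1B2 turned to 0.13 and 0.10.

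Of the 3 genes that start autophagy, ULK1 and WIPI1 lay higher in knockout and had knockout arrays at least 2-fold apart. WIPI1, which binds the lipid that marks the forming membrane, read 8.85 and 9.89 in knockout, against 8.12 and 8.28 in wild type. Both knockout arrays were higher, though they lay 2-fold apart, and the difference was 1.17 ± 0.38 (SE, n = 2 per group; 2.25-fold; limma adjusted p = 0.218). ULK1, the kinase that triggers the process, read 9.12 and 10.17 in knockout, against 8.44 and 8.81 in wild type, a difference of 1.02 ± 0.40, and a dimmer probe gave 0.88. BECN1, a subunit of the lipid kinase complex, read 9.83 and 9.41 in knockout, against 9.98 and 9.75 in wild type, a difference of -0.25 ± 0.20 with overlapping groups, which was -0.04 with arrays scaled to equal medians. CTSD, ULK1 and WIPI1 were the members at least 2-fold higher by group means (6.12%, against 3.29% of all genes), and MCOLN1 the one 2-fold lower (2.04%, against 1.66%).

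The conjugation enzymes, which couple ATG8 proteins to lipid, split. ATG7, the E1-like enzyme at the head of the pathway, read 8.72 and 9.18 in knockout, against 8.08 and 8.38 in wild type. Its groups were apart by 0.72 ± 0.22 (SE, n = 2 per group; 1.64-fold; limma adjusted p = 0.205). ATG3, the E2-like enzyme that acts next, read 10.31 and 10.12 in knockout, against 10.86 and 10.67 in wild type, and lay lower by -0.55 ± 0.14 (1.47-fold; limma adjusted p = 0.171), or -0.36 with arrays scaled to equal medians. ATG5 and ATG12, which are joined to each other to form the E3-like enzyme, differed by 0.41 and -0.09. ATG5 stood apart from wild type on knockout replicate 2 alone, at 0.81 above the wild type mean against 0.0040 on knockout replicate 1. ATG12 turned to 0.10 with arrays scaled to equal medians.

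The ATG8 proteins and the cargo receptor SQSTM1 (p62) showed little that exceeded the replicate spread. GABARAP read 7.0 and 7.43 in knockout, against 6.78 and 6.62 in wild type, a difference of 0.51 ± 0.20 with groups apart. MAP1LC3B, the LC3 protein most used to count autophagosomes, read 9.67 and 9.94 in knockout, against 9.97 and 10.08 in wild type, a difference of -0.22 ± 0.15 that shrank to -0.02 with arrays scaled to equal medians. SQSTM1 read 13.13 and 13.61 in knockout, against 13.25 and 13.42 in wild type, so that the knockout arrays enclosed the wild type arrays and the difference was 0.03 ± 0.21. GABARAPL1 had the knockout arrays farthest apart of all 49 genes, at 8.32 and 9.59, against 8.91 and 8.64 in wild type. GABARAPL2 differed by -0.17, or 0.02 with arrays scaled to equal medians, with overlapping groups.

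Leaving out 1 knockout array changed which genes passed the test over all genes. These fits take their spread from the wild type pair and lend it to the lone knockout array. Without knockout replicate 1, 22 of the 49 genes passed, 18 higher and 4 lower, against 28.8% of all genes called. The 4 lower were MCOLN1, CTSC, GLB1 and ATG3. Without knockout replicate 2, CTSD was higher and GLB1 lower at an adjusted limma p of 0.0351 and 0.045, against 2.57% of all genes called. Both also passed without knockout replicate 1, at adjusted p of 0.00628 and 0.0356. Leaving out either wild type array gave no call among the members or any other gene.

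Other genes of the same pathways, 123 in a list of which 104 were measured, had a median difference of 0.07, and 58 lay above 0 (55.8%, against 49.2% of all genes). Of these 13 were higher and 8 lower at an unadjusted limma p under 0.05 (12.5% and 7.69%, against 9.6% and 10.5% of all genes), and 0 passed over all genes. Both knockout arrays lay above both wild type arrays in 30 and below in 30 (28.8% each, against 25.9% and 28.2% of all genes). By role, 16 of 22 measured hydrolases lay above 0, with a median of 0.25 that was -0.01 on knockout replicate 1 and 0.59 on knockout replicate 2, while 8 of 11 membrane proteins lay below 0, with a median of -0.18. Without knockout replicate 2 the median of the 104 genes was -0.04.

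Of the other pathway genes, the 5 lowest p-values on either side belonged to the following. NAGLU, an enzyme of heparan sulfate breakdown, read 8.68 and 8.89 in knockout, against 7.70 and 7.6 in wild type, a difference of 1.13 ± 0.14 (SE, n = 2 per group). SCARB2, the membrane protein LIMP-2 that carries glucocerebrosidase to the lysosome, differed by 0.93 ± 0.17, and OPTN, a cargo receptor, by 1.16 ± 0.19. ATP6V0E2 of the proton pump and RRAGA, a GTPase through which lysosomes signal to mTOR, differed by 0.86 ± 0.13 and 0.59 ± 0.13. In the other direction CTSV, a protease close to CTSL, read 8.55 and 8.49 in knockout, against 9.76 and 9.47 in wild type, a difference of -1.09 ± 0.15. ATP6V1C1, a subunit of the cytosolic part of the pump, differed by -1.11 ± 0.15 and WIPI2, the relative of WIPI1 that brings in the conjugation machinery, by -1.06 ± 0.19. ATG16L1, to which WIPI2 binds, and ATG101, a partner of ULK1, differed by -0.84 ± 0.12 and -0.51 ± 0.12. The ATG101 difference was -0.30 with arrays scaled to equal medians. WIPI1 and WIPI2, like LAPTM4A and LAPTM4B or CTSL and CTSV, are related genes whose differences had opposite signs. These pairs were picked with their signs known, and 49.2% of all genes lay above 0. For CTSL the difference was 0.18 ± 0.14, and 1 of its kept probes gave -0.09.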

How the data were processed

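RNA of 4 samples, 2 knockout and 2 wild type, was read on Illumina bead arrays; per the labels, biotin-labelled cRNA was used, and the submitters' processing notes name GenomeStudio. Per the file headers, the first deposited table has a mean signal intensity and a detection p-value for each of 47230 probes and array, on a linear scale and not normalised. The authors' second deposited table holds log2 values of 47164 probes, normalised by a method not given in the sources used here.

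Signals were corrected by limma's normexp method, with an offset of 16 and with negative controls that it infers through the detection p-values, then quantile normalised and turned to log2 (limma 3.58.1 in R 4.3.3). Folds are on that scale, which shrinks them for dim probes. Of 19752 probes kept, 14977 had 1 gene symbol in GEO's platform annotation, updated through a GRCh38.p14 gene table, and the brightest stood for each of 11311 genes. Of all probes, 30074 had 1 symbol, 8 had several and 17148 were unnamed. Steps were tested on simulated data that gave every array the same spread, taken from the wild type pair. The wider spread between the knockout arrays was not simulated. Members and lists were chosen with earlier results of these data known. Values per array are given for the regulators and main markers (TFEB, TFE3, MCOLN1, LAMP1, LAMP2, CTSB, CTSD, CTSL, SQSTM1 and MAP1LC3B), for members with an unadjusted p under 0.05 or a difference of at least 0.58, and for the highest and lowest of each role; GABARAPL1, PSAP, CD68, LAPTM5 and GALC were added after their values were seen. Of the other pathway genes, the 5 with the smallest p in each direction are named. Alternatives were each array left out, the replicate number as a block, an intensity trend, a gene's probes averaged, the authors' deposited values, a stricter filter (0.01 on 4 of 4 arrays) or none, an offset of 50, no background correction, and equal medians. The number of arrays limits the precision.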

Additional observations from a re-analysis of the deposited data

How the results depend on the processing

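No gene passed the adjusted threshold under any alternative that kept all 4 arrays. Of the 49 genes, 32 kept their direction under every setting run, 22 above 0 and 10 below. The same count was not made over all genes, so these numbers have no background. ATP6AP1 is not among the 32 and turned only with the authors' deposited values. With arrays scaled to equal medians, 1492 genes had an unadjusted limma p under 0.05 (2279 otherwise). Of the 1492, 1283 were higher and 209 lower, and of the members 13 were higher and 1 lower. Both knockout arrays lay below in 4 members, a count not made over all genes. Medians were 0.39 for the members, 0.26 for the other pathway genes and 0.12 for all genes. That scaling also turned TFE3 to 0.27, GUSB to 0.11, NPC1 to 0.15, ATP6V0D1 to 0.13, ATP6V1B2 to 0.10, ATG12 to 0.10 and GABARAPL2 to 0.024. In the authors' deposited table TFEB stood at -0.0043 and ATP6AP1 at -4.85. For ATP6AP1 that table lists 11.85 and 1.57 in knockout, against 11.28 and 11.85 in wild type. Its values for knockout replicate 1 and wild type replicate 2 are thus the same.

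The labels do not say that replicate numbers pair the samples. Across the 11311 genes, replicate 1 minus replicate 2 in knockout correlated with the same difference in wild type at 0.444. With the replicate block, 2901 of these genes had an unadjusted limma p under 0.05, 1438 higher and 1463 lower. Of the 49 members 10 were higher and 4 lower at that threshold, and 0 genes passed after adjustment.

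With 1 array left out, genes called ranged from 0 to 3262 after adjustment and 674 to 4647 before it, and members called from 0 to 22. Members higher ranged from 1 to 21, lower from 1 to 7, both knockout arrays above from 21 to 33 and below from 11 to 20, and above 0 from 26 to 35. Medians ranged from 0.03 to 0.30 for members, from -0.040 to 0.10 for other pathway genes and from -0.018 to 0.0049 for all genes. Signs turned for TFEB (-0.012 to 0.075), TFE3 (-0.26 to 0.24), CD68 (-0.15 to 0.86), CTSB (-0.30 to 0.69), GAA (-0.14 to 1.03), GUSB (-0.22 to 0.069), NEU1 (-0.52 to 0.028), NPC1 (-0.32 to 0.24), ATP6V0D1 (-0.31 to 0.17), ATP6V0E1 (-0.030 to 0.19), ATP6V1A (-0.16 to 0.30), ATP6V1B2 (-0.38 to 0.22), GABARAPL1 (-0.45 to 0.82) and SQSTM1 (-0.21 to 0.27). The cause of these changes was not tested beyond the array left out.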

Other observations

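On the arrays, 147 probes (0.311% of 47230) had detection p-values that are not whole multiples of 1/770, the step shared by all others, within a tolerance of 0.001 of a step. Per array there were 139 and 132 in knockout, and 140 and 142 in wild type, and 139 and 132 of them in knockout, and 140 and 139 in wild type, had a detection p under 0.05. On the same arrays the next dimmer regular probe had a detection p over 0.1 for 89 and 87 of them in knockout, and for 91 and 92 in wild type. TFEB and TFE3 are the members among them. Of the 128 with a gene symbol, 43 have symbols starting TF (of 45 such probes on the array), 16 APOB (of 16) and 13 EGF (of 14). No source used here says how these detection p-values came about. With these detection p-values replaced by those of probes of like signal, 48 members were measured, among 11267 genes in all. Of the members 30 lay above 0, and their median difference was 0.19, against -0.011 for all genes. At an unadjusted limma p under 0.05, 9 members were higher and 4 lower, against 1135 and 1156 of the 11267 genes.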
